A study of Mus musculus with 24 samples.

Results

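The 7 mouse sirtuin genes, Sirt1 to Sirt7, were examined in striatal RNA-seq of the R6/1 model of Huntington's disease. They were taken as the rows of the deposited tables whose gene name is 1 of these 7 symbols, and all 7 were found among the 24340 genes that the 6 tables share. The mice were males on a C57BL/6J background, either hemizygous R6/1, which carry exon 1 of human HTT with an expanded CAG repeat, or wild type (WT) littermates. In R6/1 the fragment is driven by the human HTT promoter and is inserted in addition to both normal mouse alleles, so that it models a short mutant protein rather than the full-length one. From 11 to 14 weeks of age they received intraperitoneal RGFP109, an inhibitor of HDAC1 and HDAC3, at 30 mg/kg on 5 days of each week over 3 weeks, or an equal volume of the dimethyl sulfoxide and saline vehicle. Striatum was taken 18 h after the last injection, at 14 to 17 weeks of age, from 6 R6/1 and 5 WT mice on vehicle and from 7 R6/1 and 6 WT mice on RGFP109. The groups are called R6/1-vehicle, WT-vehicle, R6/1-RGFP109 and WT-RGFP109.

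Sirtuins are deacylases that use NAD+ as a cosubstrate and release nicotinamide, which sets them apart from the classical, zinc-dependent HDACs to which HDAC1 and HDAC3 belong. SIRT1, SIRT6 and SIRT7 are mainly nuclear, with SIRT7 concentrated in the nucleolus, SIRT2 is mainly cytosolic, and SIRT3, SIRT4 and SIRT5 are mitochondrial. In brain, SIRT1 is known for its work on transcription factors of metabolism and stress, SIRT2 is known as an abundant protein of oligodendrocytes and myelin, and both have been studied in Huntington's disease models.

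Each table holds 1 FPKM value per gene and group (fragments scaled by transcript length and by the mapped fragments of the library), which is the authors' group value over its mice. Values of single mice were not used here, so no replicate error, SD or test stands behind any value, and a difference is given as its size beside that of all genes. The depth of the libraries is unknown. The libraries were sequenced in 2 pools that each held all 4 groups, and the group values could not be split by pool. Values of 1 group differ between its 3 tables by a common factor of at most 1.04, because each pair of groups was normalized separately. Levels below are therefore the median of the 3 tables, and each ratio is taken within the table of its own pair, as log2 after adding 0.05 FPKM. Where a gene's absolute log2 ratio was above 0.5, the minimum fold used in the study, it is said to be past the fold.

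In WT-vehicle striatum the sirtuins spanned a 36.1-fold range of FPKM, a scale that takes transcript length into account. Sirt2 was the highest at 129 FPKM, and 4.25% of the 13607 genes of at least 1 FPKM were higher. Sirt3, the main mitochondrial deacetylase, followed at 49.6 FPKM and Sirt7 at 34.0 FPKM. Sirt4, Sirt6 and Sirt5 lay close together at 11.5, 11.1 and 9.66 FPKM, near the median of 11.9 FPKM over those genes. Sirt1, the best studied member, was the lowest at 3.57 FPKM, and 80.5% of genes were higher. Sirt2, Sirt3, Sirt7 and Sirt1 kept these places in all 4 groups, while Sirt4, Sirt6 and Sirt5 differed from each other by less than 3 FPKM in every group, and without values per mouse their order cannot be settled.

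**Figure D1:**
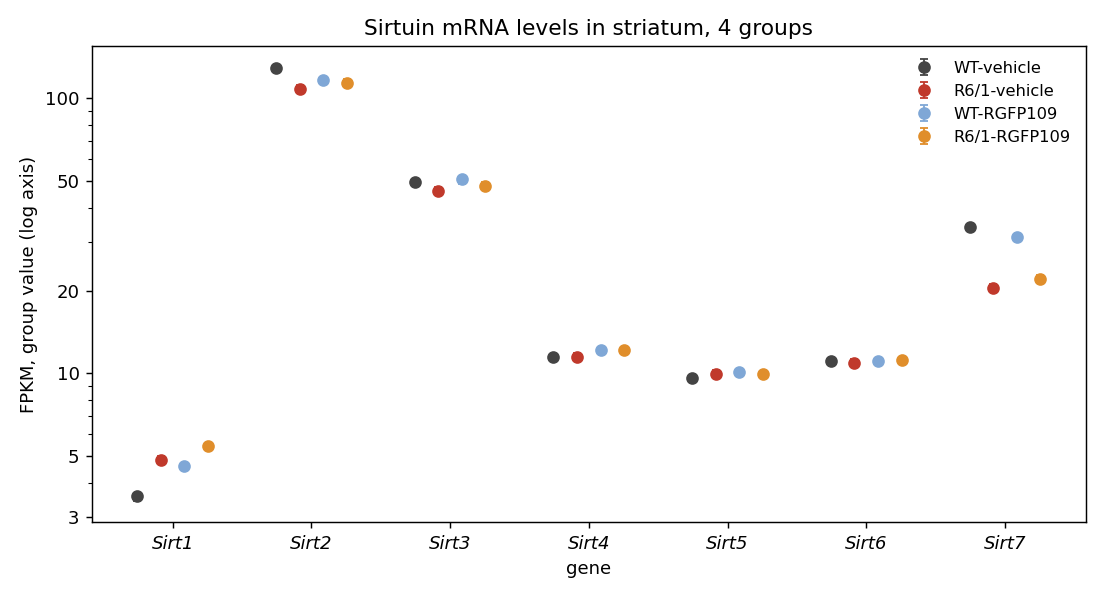
FPKM of each sirtuin on a log axis, with 1 point per group (the authors' group value, median of 3 tables). The lines through the points span the 3 tables and are mostly shorter than the points. Sirt7 is near 34 and 31.3 FPKM in the WT groups and near 20.4 and 22.1 FPKM in the R6/1 groups, Sirt1 is lowest in WT-vehicle, and Sirt3 to Sirt6 are nearly level.

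Sirt7 was the sirtuin that differed most between the genotypes. It was at 34.0 FPKM in WT-vehicle, 31.3 in WT-RGFP109, 20.4 in R6/1-vehicle and 22.1 in R6/1-RGFP109, so both R6/1 groups lay below both WT groups. The highest group was 1.66-fold above the lowest, a range reached by 7.41% of the 12992 genes of at least 1 FPKM in every group. Against WT-vehicle, R6/1-vehicle had a log2 ratio of -0.73, a change of -39.9%, and 5.60% of 13659 genes were at least as far below. Between the RGFP109-treated groups, the log2 ratio was -0.50, only just past the fold and no longer so after adding 1 FPKM, and 8.60% of genes were at least as far below. The 2 genotype differences were 0.23 apart on the log2 scale, and this gap was not tested. Sirt7 encodes the deacetylase of histone H3 at promoters that also works with RNA polymerase I at ribosomal RNA genes.

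Sirt7 differed less between the treatments than between the genotypes. The log2 ratio was 0.11 in R6/1 mice, where 11.2% of genes were at least as far above, and -0.12 in WT mice, where 16.2% were at least as far below. In R6/1-RGFP109 striatum Sirt7 still had a log2 ratio of -0.62 to WT-vehicle.

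Several tissue markers were also lower in R6/1 striatum, and fewer cells of a type and less RNA per cell cannot be told apart in bulk tissue. Of 8 markers of striatal projection neurons, which include Ppp1r1b, Drd1, Drd2 and Penk, 7 were past the fold and lower in R6/1-vehicle than in WT-vehicle, and none was listed at 0 in any group. Their summed level was 3120 FPKM in WT-vehicle, 3017 in WT-RGFP109, 1208 in R6/1-vehicle and 1087 in R6/1-RGFP109. The sum thus separated the genotypes as Sirt7 did, whereas within R6/1 the 8 markers were all lower with RGFP109 and Sirt7 was slightly higher. The sums of 8 oligodendrocyte genes and of 6 neocortical neuron genes, given below, had the same order of groups as Sirt7. Within R6/1 both sums were higher with RGFP109, and their lists had median log2 ratios of -0.82 and -0.69 in R6/1-vehicle against WT-vehicle. In R6/1-vehicle against WT-vehicle the log2 ratios had a median of -0.30 over 5 pan-neuronal genes, -0.36 over 6 astrocyte genes, -0.28 over 6 microglial genes and -0.48 over 4 endothelial genes. The part of cell composition in the Sirt7 values was not tested.

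Sirt1 was lowest in WT-vehicle, and the other 3 groups were all higher. It was at 3.57 FPKM in WT-vehicle, 4.62 in WT-RGFP109, 4.85 in R6/1-vehicle and 5.43 in R6/1-RGFP109, a range of 1.52-fold that 11.2% of genes reached. Sirt1 encodes the nuclear deacetylase of p53, FOXO factors and PGC-1alpha. R6/1-vehicle had a log2 ratio of 0.44 to WT-vehicle, an increase of 35.8%, with 5.38% of genes at least as far above. The ratio was 0.23 between the RGFP109-treated genotypes.

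RGFP109 against vehicle gave a log2 ratio for Sirt1 of 0.36 in WT mice, where 2.36% of genes were at least as far above, and of 0.15 in R6/1 mice, where 6.91% were. No other sirtuin had a larger positive ratio in either treatment comparison. The treatment ratio in WT and the genotype ratio under vehicle share the WT-vehicle group, so a low value there enters both. R6/1-RGFP109 stood furthest from WT-vehicle, with a log2 ratio of 0.59 and 2.86% of genes at least as far above. After adding 1 FPKM in place of 0.05, this ratio was 0.49 and no longer past the fold.

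WT-vehicle also differed in markers of choroid plexus, a tissue of the ventricle beside the striatum. The summed level of 6 such genes, Ttr among them, was 1483 FPKM in WT-vehicle, 320 in WT-RGFP109, 631 in R6/1-vehicle and 39.6 in R6/1-RGFP109. None was listed at 0, but 1 gene was below 1 FPKM in WT-RGFP109 and 3 were in R6/1-RGFP109. Ttr alone made up 1443 FPKM of the sum in WT-vehicle. WT-vehicle was thus lowest in Sirt1 and highest in these genes and R6/1-RGFP109 the reverse, whereas R6/1-vehicle was above WT-RGFP109 in both. The sums of the projection neuron, microglial and endothelial genes had the reverse of the Sirt1 order over all 4 groups, and the other marker sums did not. For endothelium they were 43.0 FPKM in WT-vehicle, 36.9 in WT-RGFP109, 28.4 in R6/1-vehicle and 25.9 in R6/1-RGFP109. For microglia they were 181, 179, 152 and 150 FPKM in these groups, while the WT-vehicle sum alone ranged from 175 to 182 FPKM over its 3 tables. The projection neuron and microglial orders did not hold gene by gene. In WT-RGFP109 against WT-vehicle, 3 of 8 and 3 of 6 of their genes were higher, beside 0 of 4 endothelial genes. In R6/1-RGFP109 against R6/1-vehicle, 1 microglial gene was higher. The sum of 6 neocortical neuron genes was 350 FPKM in WT-vehicle, 327 in WT-RGFP109, 197 in R6/1-vehicle and 249 in R6/1-RGFP109. The part of such tissue or of cell composition in the Sirt1 values was not tested.

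Sirt2 was somewhat lower in the 3 other groups than in WT-vehicle. It was at 129 FPKM in WT-vehicle, 117 in WT-RGFP109, 114 in R6/1-RGFP109 and 108 in R6/1-vehicle, a range of 1.19-fold that 47.9% of genes reached. R6/1-vehicle had a log2 ratio of -0.25 to WT-vehicle, with 22.4% of genes at least as far below. Under RGFP109 the genotypes had a log2 ratio of -0.04. The treatment ratio was -0.15 in WT mice and 0.07 in R6/1 mice.

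Oligodendrocyte genes stood further below their WT-vehicle levels than Sirt2 in the other 3 groups. In R6/1-vehicle against WT-vehicle, all 8 of them (Mbp, Mog, Mag and Cnp among them, which encode proteins of myelin and its glia) were lower, 6 past the fold, with a median log2 ratio of -0.82. All 8 were lower in WT-RGFP109 than in WT-vehicle, with a median of -0.40, and all 8 were higher in R6/1-RGFP109 than in R6/1-vehicle, with a median of 0.12. In that last comparison Mag, Opalin and Cnp, at 0.05, 0.05 and 0.07, differed by no more than Sirt2. Between the RGFP109-treated genotypes the median was -0.20, with Mog on the other side at 0.03 and Mag and Cnp at -0.03 and -0.02, nearer to 0 than Sirt2. Their summed level was 4880 FPKM in WT-vehicle, 3793 in WT-RGFP109, 3087 in R6/1-RGFP109 and 2737 in R6/1-vehicle, the same order of groups as for Sirt2, and none was listed at 0. This order was not particular to them, since Sirt7 and the sum of the neocortical neuron genes had it too. The part of oligodendrocyte RNA in the Sirt2 values was not tested.

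**Figure D2:**
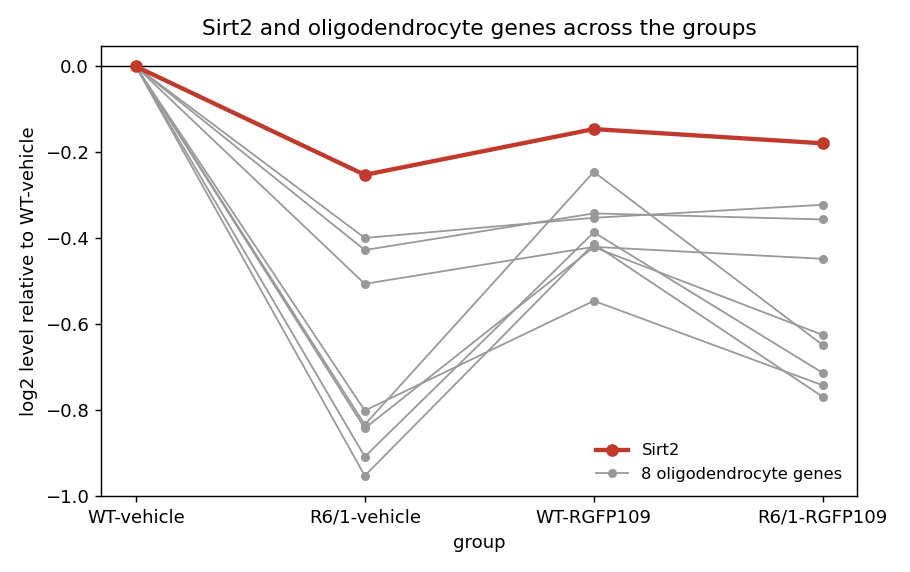
Log2 level relative to WT-vehicle in each group, for Sirt2 (red) and 8 oligodendrocyte genes (grey), with 1 point per gene and group and lines that join the points of a gene. Sirt2 is at -0.15 in WT-RGFP109, -0.18 in R6/1-RGFP109 and -0.25 in R6/1-vehicle, and each oligodendrocyte gene is further below its WT-vehicle level than Sirt2 in all 3 groups.

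The mitochondrial sirtuins and Sirt6 were nearly level. Sirt3 was at 49.6 FPKM in WT-vehicle, 50.8 in WT-RGFP109, 46.1 in R6/1-vehicle and 48.2 in R6/1-RGFP109, a range of 1.10-fold that 75.4% of genes reached or exceeded. Its log2 ratio was -0.11 in R6/1-vehicle against WT-vehicle and -0.08 between the RGFP109-treated genotypes, so it was slightly lower in R6/1 both times. Sirt4, a mitochondrial lipoamidase and ADP-ribosyltransferase, was at 11.5 FPKM in both vehicle groups and at 12.2 and 12.1 FPKM in the WT and R6/1 groups on RGFP109. Its treatment log2 ratio was 0.08 in WT mice and 0.08 in R6/1 mice, and its genotype ratios were both -0.01.

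Sirt5, which removes succinyl and malonyl groups in mitochondria, stayed between 9.66 FPKM in WT-vehicle and 10.1 FPKM in WT-RGFP109, a range of 1.05-fold. Its 5 log2 ratios lay between -0.03 and 0.07. Sirt6, a chromatin deacetylase of DNA repair and telomeres, was the most even member, at 11.1 FPKM in WT-vehicle, 11.1 in WT-RGFP109, 10.9 in R6/1-vehicle and 11.2 in R6/1-RGFP109. Of 12992 genes, 99.3% had at least its range of 1.02-fold.

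Counted over the family, R6/1-vehicle against WT-vehicle had 1 of 7 sirtuins past the fold, Sirt7, and it was lower, beside 14.3% of 13659 genes past the fold in either direction and 10.3% lower. R6/1-RGFP109 against WT-RGFP109 also had Sirt7 alone, beside 12.3% of genes in either direction and 8.75% lower. R6/1-RGFP109 against R6/1-vehicle had 0 of 7, beside 3.00% of genes, and WT-RGFP109 against WT-vehicle had 0 of 7, beside 3.90%. R6/1-RGFP109 against WT-vehicle had 2 of 7, Sirt1 higher and Sirt7 lower, beside 14.1% of genes in either direction, 10.1% lower and 3.93% higher. With 7 genes, 1 member more or less moves such a share widely, and nothing is read from it about the family. The median log2 ratio of the 7 was -0.02, -0.03, 0.07, 0.03 and 0.00 in the same order of comparisons, and that of all genes lay between -0.01 and 0.01 each time.

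**Figure D3:**
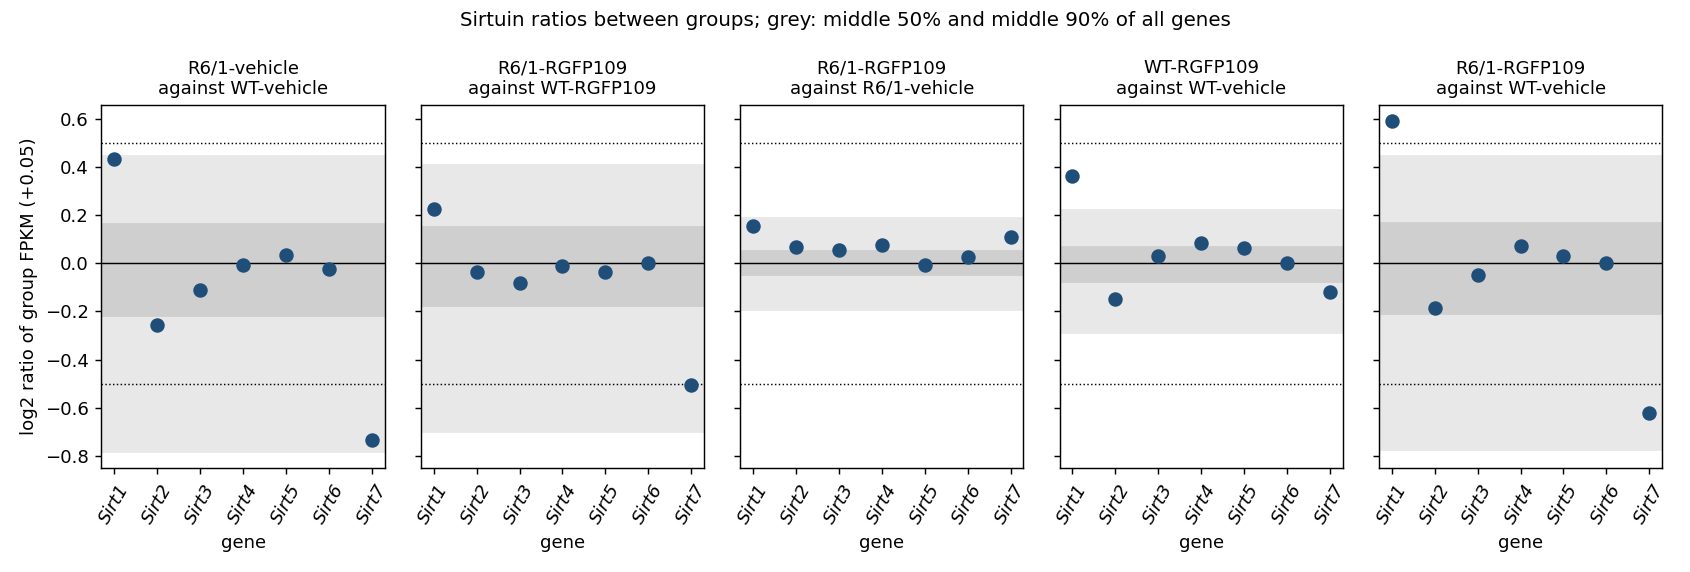
Log2 ratio of group FPKM (after adding 0.05) for the 7 sirtuins in 5 comparisons, with 1 point per gene. The dark and light grey bands hold the middle 50% and the middle 90% of all genes of at least 1 FPKM and the dotted lines mark the fold of 0.5 in either direction. Sirt7 is past the lower line in the 3 comparisons of R6/1 with WT, Sirt1 is above the upper line in R6/1-RGFP109 against WT-vehicle, and in the treatment comparison within R6/1 all 7 lie between just under 0 and 0.15.

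The comparison of genotypes under vehicle and that under RGFP109 share no group of mice. The log2 ratios of 5 of the 7 sirtuins had the same sign in both, beside 82.8% of 13460 genes. Sirt4 was among them, with ratios so near 0 that centring on the median of all genes turns 1 of them. Sirt6 was not, but the same centring turns its ratio between the treated genotypes from 0.0030 to -0.0076. The treatment comparisons within R6/1 and within WT also share no group, and there 4 of 7 had the same sign, beside 49.9% of 13288 genes. Sirt6 was among those 4 with a ratio of only 0.0007 in WT. Of the 3 members with opposite signs, Sirt2 and Sirt7 were lower in WT and higher in R6/1 on RGFP109, and Sirt5 had the reverse, with a ratio of 0.07 in WT and of just under 0 in R6/1.

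The genes most like each sirtuin over the 4 groups were named by the distance between log2 levels centred on each gene's mean, over 12992 genes and only 4 points, as a description. For Sirt7 they were Cstad, Zbtb8a and Fmnl1, at distances of 0.01, 0.03 and 0.03. For Sirt1 they were Olfm3, Zfp874b and Pcdhb7, at 0.03, 0.04 and 0.07. For Sirt2 they were Enpp4, Cnppd1 and Idh2, at 0.00, 0.01 and 0.01. Sirt3 was nearest to Plcl2, Rap1gds1 and Tfdp2, Sirt4 to 4933404O12Rik, Med4 and Fam63b, Sirt5 to Adam22, Pcdhga3 and Glb1, and Sirt6 to Mbip, Tpra1 and Setd3.

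Sirtuin activity rests on the supply of NAD+. The counts of related genes past the fold in R6/1-vehicle against WT-vehicle stand beside the 14.3% of all genes, and in lists this short the genes named are a description. Of 11 genes of NAD+ synthesis and nicotinamide use, 10 had a mean of at least 1 FPKM in that pair, and the 1 past the fold was Nnmt, which is not a synthesis gene. Nampt, the rate-limiting enzyme of the salvage route, had a log2 ratio of 0.04, and Nmnat1, the nuclear adenylyltransferase, one of 0.10. Nnmt, whose enzyme methylates nicotinamide and so takes it out of the route, was higher at 0.58, but with only 1.21 and 0.795 FPKM in the groups. Among 4 measured genes of 5 that encode other NAD+ consumers, Cd38, an NAD+ glycohydrolase, was lower at -0.54, again near 1 FPKM (0.848 and 1.25). Parp1 and Parp2, the DNA damage polymerases, had log2 ratios of -0.18 and 0.05.

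Among 6 measured genes of 7 that encode regulators and clock partners of SIRT1, none was past the fold in R6/1-vehicle against WT-vehicle. Ccar2 (also called DBC1), an inhibitor of SIRT1, had a log2 ratio of 0.06, and Rps19bp1 (AROS), described as its activator, one of -0.26. The circadian gene Per2 was picked out here after its value was seen. It was the only one of them past the fold between the RGFP109-treated genotypes, at -0.57, beside 12.3% of all genes.

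Of 15 nuclear and cytosolic substrates and partners, 3 were past the fold in R6/1-vehicle against WT-vehicle, 1 higher and 2 lower, a share not far from that of all genes. Foxo1, a transcription factor of insulin signaling, was at 10.9 FPKM against 18.4 FPKM, a log2 ratio of -0.75, and at -0.54 between the treated genotypes. Bdnf encodes a neurotrophin and is on the list as a gene downstream of SIRT1 rather than a substrate. It had a log2 ratio of -0.57, at a low level of 1.77 FPKM in R6/1-vehicle and 2.64 in WT-vehicle. Rbbp8, a gene of DNA end resection whose protein is a SIRT6 substrate, had one of 0.56, but at only 1.84 and 1.23 FPKM in these groups. Ppargc1a, the gene of PGC-1alpha, had a log2 ratio of 0.13. Over the list 8 genes were above 0 and 7 below, with a median of 0.03.

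For the mitochondrial substrates, 16 of the 17 genes on the list were measured in R6/1-vehicle against WT-vehicle. Acss2 and Sod1, at log2 ratios of -0.32 and -0.04, are on it although their proteins are mainly outside mitochondria. They are named for that reason. Sod2, the mitochondrial superoxide dismutase, had a log2 ratio of 0.39 and Idh2, which makes NADPH in mitochondria, one of -0.27. Over the list 7 genes were above 0 and 9 below, and the median was -0.03.

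Of the 10 genes listed around Sirt7, most are of the nucleolus and RNA polymerase I. Gabpb1 and Elk4, at log2 ratios of 0.18 and -0.21 in R6/1-vehicle against WT-vehicle, are of neither kind and are named for that reason. The median of the whole list in this pair was 0.23, beside -0.01 over all genes. It had 7 genes above 0, 3 below and none past the fold. Polr1a, the largest polymerase I subunit, had a log2 ratio of 0.32, and Ubtf, the polymerase I activator that SIRT7 binds, one of -0.49. Under RGFP109 the median between genotypes was 0.07. Fbl, the methyltransferase of ribosomal RNA also called fibrillarin, was the only one past the fold there, at 0.78, and is named after its value was seen.

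None of the 11 classical HDAC genes was past the fold in any of the 5 comparisons. In the order used for the family, 14.3%, 12.3%, 3.00%, 3.90% and 14.1% of all genes were. Hdac1 was at 3.51 FPKM in WT-vehicle, 3.09 in WT-RGFP109, 4.18 in R6/1-vehicle and 3.93 in R6/1-RGFP109. Hdac2 had a log2 ratio of 0.26 in R6/1-vehicle against WT-vehicle, and Hdac3, named as a target of RGFP109 after its values were seen, stayed between 58.5 and 59.7 FPKM in all groups. In R6/1-RGFP109 against R6/1-vehicle no gene of these 7 lists with a mean of at least 1 FPKM, the HDACs included, was past the fold. That stands beside 3.00% of all genes, and the list medians lay between -0.03 and 0.05.

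**Figure D4:**
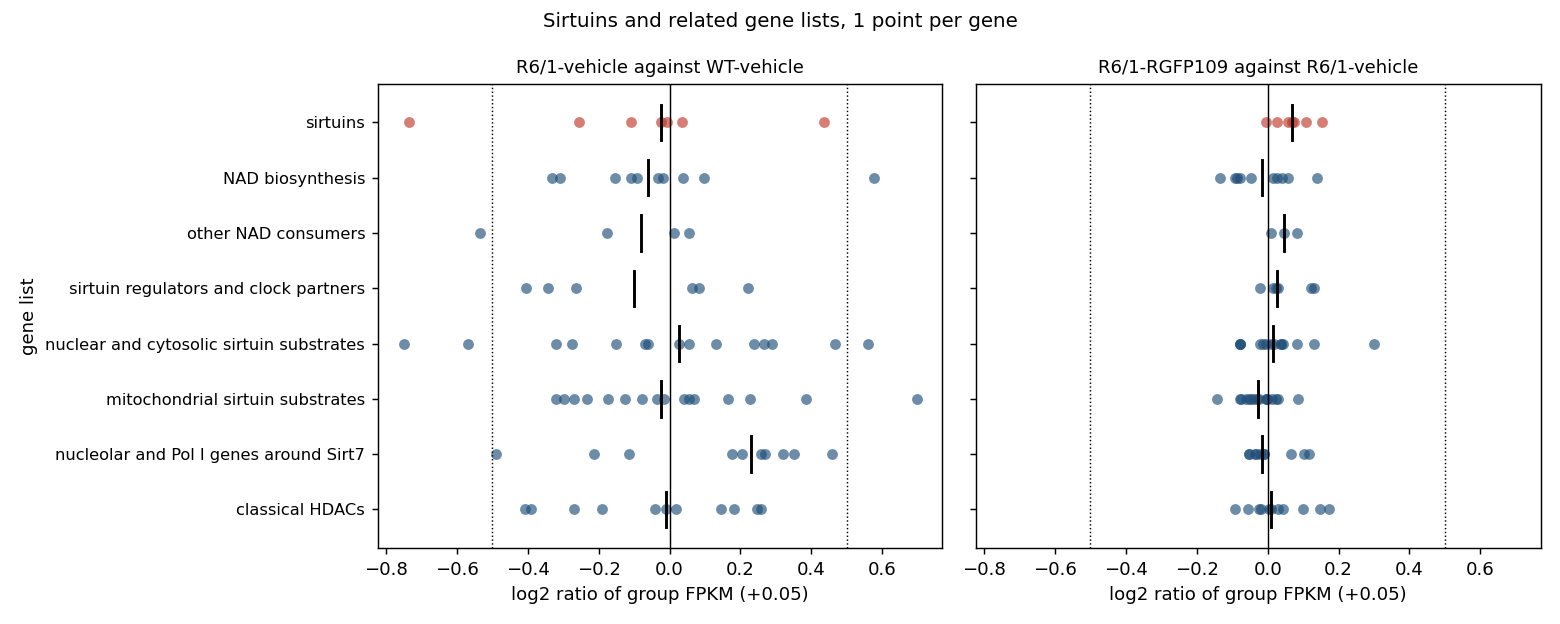
Log2 ratio of group FPKM (after adding 0.05) of each sirtuin (red) and of each measured gene of 7 related lists (blue), with a bar at the list's median and dotted lines at 0.5 in either direction. The left panel is R6/1-vehicle against WT-vehicle and the right panel R6/1-RGFP109 against R6/1-vehicle. The sirtuins spread from -0.73 to 0.44 on the left, while no point is past the fold on the right.

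The 7 genes lie apart in the mouse genome, and other genes overlap some of them. Whether these overlaps affect the sirtuin values was not tested. In the deposited tables (mm10) Sirt1 is at chr10:63319005-63339035, Sirt4 at chr5:115478010-115484484, Sirt5 at chr13:43370716-43395203 and Sirt6 at chr10:81621786-81627608. The tables join overlapping genes into 1 locus, which is chr7:28766752-28788665 for Sirt2 and Gm19897, chr7:140857397-140882309 for Sirt3 and Ric8, and chr11:120618372-120625002 for Sirt7 and the microRNA gene Mir6936. Whether the reads were counted by strand is not given in the sources used here, so reads where exons of opposite strands overlap may not have been told apart. By GENCODE M21 (GRCm38), exons of other genes cover 12.7% of the exonic bases of Sirt3, 3.46% of those of Sirt7, 1.22% of Sirt1, 0.834% of Sirt2 and none of the other 3. For Sirt3, Sirt1 and Sirt2 these exons are on the opposite strand. For Sirt7 they belong to Mafg and Mir6936 on its own strand, where counting by strand would not separate the reads.

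Neighbouring genes had their own values. Mir6936 was at 185 FPKM in WT-vehicle and listed at 0 in the other 3 groups, and its part in the Sirt7 values was not tested. FPKM is scaled by transcript length, so few reads can give a high value in a gene as short as a microRNA. The number of its reads is unknown. Mafg, whose exons reach the upstream side of Sirt7, had a log2 ratio of -0.20 in R6/1-vehicle against WT-vehicle, beside -0.73 for Sirt7. Psmd13, a proteasome subunit gene that shares its start region head to head with Sirt3, had one of -0.06. Nfkbib, which stands head to head with Sirt2 and encodes an inhibitor of NF-kappaB, had one of -0.06 beside -0.25 for Sirt2.

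The upstream sequences of Sirt1 and Sirt2 are shown because these genes had the lowest and highest levels of the family, and because the stretch of Sirt2 lies between its own start and that of Nfkbib. All 7 sirtuins matched the RefSeq promoter table (GRCm38.p6), and only the stretches free of annotated exons are printed, in the direction of the sirtuin gene. Capitals mark matches on either strand to an E-box (CACGTG, bound by the clock factors CLOCK and BMAL1 among others), a CCAAT box (CCAAT), a GC box (GGGCGG) or a TATA box (TATAAA), overlapping matches included.
Sirt1 (chr10:63339051-63339285, minus strand): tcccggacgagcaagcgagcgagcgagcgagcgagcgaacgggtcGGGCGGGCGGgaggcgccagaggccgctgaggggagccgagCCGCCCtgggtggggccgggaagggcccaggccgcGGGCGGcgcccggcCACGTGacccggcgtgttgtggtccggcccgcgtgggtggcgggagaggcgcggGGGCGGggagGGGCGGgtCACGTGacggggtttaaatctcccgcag
Sirt2 (chr7:28766645-28766734, plus strand): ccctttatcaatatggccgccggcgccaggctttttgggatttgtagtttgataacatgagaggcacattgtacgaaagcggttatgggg

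The Sirt1 stretch of 235 bases held 2 E-boxes, 6 GC boxes and 36 CpG sites. The shorter Sirt2 stretch of 90 bases held none of the 4 motifs and 5 CpG sites, while the full window of 250 bases upstream of Sirt2, which also covers exons, held a CCAAT box, a GC box and 13 CpG sites, a number that 31.5% of promoters reached. In its own full window Sirt1 had 39 CpG sites, a number that 1.56% of the 32851 promoters reached, against a median of 6. An E-box was present in 6.02% of these promoters, a GC box in 32.7%, a CCAAT box in 33.8% and a TATA box in 12.4%, and Sirt1 was the only sirtuin with an E-box in its window. The genes of the E-box factors, Clock and Arntl, named here after their values were seen, had log2 ratios of 0.22 and 0.08 in R6/1-vehicle against WT-vehicle. A match of letters is a description and shows no binding.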

How the data were processed

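Striatal RNA of 24 mice was sequenced by the authors (TruSeq RNA kit, single-end reads of 51 bases). They aligned the reads to RefSeq transcripts of mm10 with STAR 2.5.0b and deposited FPKM values, 1 per gene and group, from Cufflinks 2.2.1 and Cuffdiff, in 6 tables. These tables also hold fold changes, test statistics, p-values and q-values of the authors' own comparisons, which were not used. Groups follow the GEO labels. From the FPKM values, log2 ratios were computed within each pair's table after adding 0.05 FPKM, and the background was all genes with a mean of at least 1 FPKM in the pair. The tables hold no values per mouse. Those of the study's supplement were not used here, so no test was run, and the depth is unknown. The sirtuins and lists were chosen with earlier results of these data known. Named were all sirtuins and, from each related list, its first 2 genes and up to 4 past the fold in R6/1-vehicle against WT-vehicle or R6/1-RGFP109 against R6/1-vehicle. Other genes of these lists are marked as chosen later. For 1 gene that the rule would name, no result is reported here. Alternatives changed the pseudocount, the minimum level, the fold, the scaling and the centring. The ratio script was tested on simulated data. Python 3.11.15, numpy 2.4.6, pandas 2.3.3 and matplotlib 3.10.9 were used.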

Additional observations from a re-analysis of the deposited data

How the results depend on the processing

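The 35 sirtuin log2 ratios kept their sign without a pseudocount and with a pseudocount of 1 FPKM, while 1 changed sign with levels set across the tables and 2 did after centring on the median of all genes, each with a main value of at most 0.0061 in size. The number of sirtuins past the fold moved as follows. With a fold of 0.25 it was 3 in R6/1-vehicle against WT-vehicle and 1 in WT-RGFP109 against WT-vehicle, beside 38.1% and 10.4% of all genes. With a fold of 1 it was 0 in the 3 comparisons of R6/1 with WT. Of all genes, 4.28% were past that fold in R6/1-vehicle against WT-vehicle, 3.77% in R6/1-RGFP109 against WT-RGFP109 and 4.27% in R6/1-RGFP109 against WT-vehicle. With a pseudocount of 1 FPKM the number of sirtuins was 0 in R6/1-RGFP109 against WT-RGFP109 and 1 in R6/1-RGFP109 against WT-vehicle, where the log2 ratio of Sirt1 became 0.49. The share of all genes was not computed for that setting. With a minimum of 10 FPKM the number of sirtuins was 1 in R6/1-RGFP109 against WT-vehicle, since Sirt1 lay under that minimum, beside 10.9% of all genes. No paired analysis was possible because the deposited columns hold group values. Leaving out each mouse in turn was not run, since values per mouse were not used here. FPKM without counts gives no limit of detection, which bears most on Sirt1, the lowest member.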
